A study of Mus musculus with 12 samples.

Results

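A set of 10 genes that respond to ERK signalling or feed back on it, namely Dusp4, Dusp6, Spry1, Spry2, Spry4, Spred1, Spred2, Etv4, Etv5 and Egr1, were followed across mouse embryonic stem cells (mESCs) and epiblast-like cells (EpiLCs). They were chosen by gene symbol, and all 10 were found among 19630 named features of the RNA-seq count table. RNA-seq of total RNA covered 12 libraries in 4 groups, with 3 libraries in each. The groups were EpiLCs re-expressing mutant EPOP, EpiLCs re-expressing WT EPOP, mESCs re-expressing mutant EPOP and mESCs re-expressing WT EPOP, all from the E14 line. EPOP is a chromatin protein that associates with the Polycomb complex PRC2. The mESCs were kept on gelatin with LIF, 3 µM of the GSK3 inhibitor CHIR99021 and 1 µM of PD0325901, a drug that blocks MEK, the kinase that activates ERK. EpiLCs were made from them on fibronectin with 20 ng/ml activin A and 12 ng/ml bFGF, an FGF ligand that signals through the ERK cascade, in a medium whose listed ingredients do not include PD0325901. EPOP was re-expressed in both genotypes, and neither the mutation nor the clonality of the lines is described in the labels. An effect of the mutation and a difference between lines therefore cannot be told apart here. The mutant effect named below means only the difference of mutant from WT cells.

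The count table gives its non-WT columns the code D5. It was read as mutant EPOP, the only other genotype in the labels, and every direction of mutant against WT below rests on that reading. Libraries held 7714164 to 10652151 counts in named genes. The transcript of the targeted gene, listed as E130012A19Rik, was at 206 ± 9.40 CPM (counts scaled to library size) in mutant EpiLCs, 209 ± 3.34 in WT EpiLCs, 468 ± 6.16 in mutant mESCs and 472 ± 10.8 in WT mESCs (SD, n = 3 each), so its total count does not separate the genotypes. The labelled cell states carried their markers. Summed over 10 naive pluripotency genes, expression was 377 to 382 CPM in mutant EpiLCs, 676 to 688 CPM in WT EpiLCs, 5145 to 5241 CPM in mutant mESCs and 5353 to 5557 CPM in WT mESCs. Summed over 8 epiblast genes, it was 1671 to 1701 CPM in mutant EpiLCs, 1709 to 1794 CPM in WT EpiLCs, 245 to 247 CPM in mutant mESCs and 313 to 332 CPM in WT mESCs. This list holds Dusp9, which is also an ERK inhibitor gene described below. Without Dusp9, an alternative added after values were seen, the other 7 genes summed to 1495 to 1516 CPM in mutant EpiLCs, 1376 to 1425 CPM in WT EpiLCs, 163 to 169 CPM in mutant mESCs and 177 to 196 CPM in WT mESCs, so the order of the EpiLC groups turned. Nothing in the labels makes the replicates separate cultures, and p-values therefore cover only library-to-library spread, possibly technical.

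FGF receptors on the cell surface activate RAS, which passes the signal through RAF and MEK to the kinase ERK. Active ERK switches on its own brakes, and these limit how strong and how long the signal is. In pluripotent cells the pathway drives exit from the naive state, and blocking MEK helps hold mESCs there. Among the 10 genes, DUSP4 and DUSP6 are phosphatases that remove the activating phosphates from MAP kinases, DUSP4 in the nucleus and DUSP6 mainly on ERK in the cytoplasm. SPRY1, SPRY2 and SPRY4 are Sprouty proteins, inhibitors of receptor tyrosine kinase signalling upstream of ERK. SPRED1 and SPRED2 are Sprouty-related membrane proteins, and SPRED1 brings the RAS-inactivating protein neurofibromin to the membrane. ETV4 and ETV5 are ETS transcription factors of the PEA3 subfamily and are common read-outs of FGF signalling. EGR1 is a zinc-finger transcription factor encoded by an immediate early gene.

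Promoter sequences from RefSeq (GRCm38.p6) were matched for 6 of the 10 genes, and the 250 bases before the start site were searched on both strands. Those of Dusp6 and Spry2 are shown because both genes were higher in mutant than in WT mESCs, and higher in EpiLCs than in mESCs of either genotype. Capitals mark GGAA, the core of ETS-factor sites, or its reverse complement TTCC. The first is from chr10:99262981-99263230 on the plus strand, and the second is from chr14:105896820-105897069, read on the minus strand.
Dusp6: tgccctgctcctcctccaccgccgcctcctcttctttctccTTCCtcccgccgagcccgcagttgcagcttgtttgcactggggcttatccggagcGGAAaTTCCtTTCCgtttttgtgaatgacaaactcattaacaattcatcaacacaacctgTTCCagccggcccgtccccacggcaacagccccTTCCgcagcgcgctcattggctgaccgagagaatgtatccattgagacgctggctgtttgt
Spry2: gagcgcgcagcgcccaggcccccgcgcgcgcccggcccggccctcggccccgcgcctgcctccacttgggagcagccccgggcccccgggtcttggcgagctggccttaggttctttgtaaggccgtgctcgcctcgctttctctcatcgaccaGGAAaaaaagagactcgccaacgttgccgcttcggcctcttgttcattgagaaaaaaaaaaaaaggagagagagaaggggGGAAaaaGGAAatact
The Dusp6 window holds 6 cores and the Spry2 window 3. The core is common: it was found in 93.4% of 32851 RefSeq mouse promoter windows of this length, with a median of 3 per window, and it was searched after values were seen. Of 4 longer motifs, the ETS motif CCGGAAG was in 6.91% of all windows, the AP-1 motif TGANTCA in 6.75%, the EGR motif GCGTGGG in 4.30% and the CArG box in 1.47%. None of the 4 was found in the windows of the 6 matched genes, which says only that these letters are not there.

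In GENCODE M21 on GRCm38, all 10 are protein-coding genes. Dusp4 lies at chr8:34807297-34819894 on the plus strand, Dusp6 at chr10:99263231-99267489 on the plus strand, and Spred1 at chr2:117121374-117182279 on the plus strand. Spry1 lies at chr3:37639947-37644598 on the plus strand, Spry2 at chr14:105891947-105896819 on the minus strand, and Spry4 at chr18:38586247-38601415 on the minus strand. Spred2 lies at chr11:19924375-20024026 on the plus strand and Etv4 at chr11:101769742-101785371 on the minus strand, on the same chromosome. Etv5 lies at chr16:22381309-22439719 on the minus strand and Egr1 at chr18:34859823-34864984 on the plus strand. In Spry1, 24.4% of the exonic bases overlap an exon of Gm42922 on the opposite strand. Gm42922 has no entry in the count table. The strand setting of the counting is not stated in the labels, so reads from both strands of that stretch could be counted to Spry1. No exon of the other 9 genes overlaps an exon of another gene.

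EpiLCs and mESCs were compared first, within each genotype. Of the 10 genes, 8 rose in EpiLCs against mESCs in both genotypes, and Etv5 and Egr1 fell in both. The extremes were Dusp4, the largest rise of the 10, and Egr1, the largest fall. All 10 passed the edgeR quasi-likelihood test in mutant cells, against 66% of all 13879 genes tested (33.4% higher and 32.6% lower), and all 10 passed in WT cells, against 62.7% of all genes (31.7% higher and 31% lower). The median log2 fold change of the 10 genes was 1.03 in mutant cells and 1.36 in WT cells, and the median of all genes was 0.0014 in mutant cells and 0.0063 in WT cells. The states differ in medium, growth factors and cell identity together, so these cannot be told apart here, and in bulk RNA fewer cells of a type and less RNA per cell cannot be told apart either.

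Both phosphatase genes were higher in EpiLCs, and Dusp4 had the largest fold change of the 10. It was at 227, 225 and 217 CPM in mutant EpiLCs and 261, 247 and 245 CPM in WT EpiLCs, against 5.67, 3.74 and 4.01 CPM in mutant mESCs and 4.87, 4.56 and 7.44 CPM in WT mESCs. All 6 mESC libraries were low and all 6 EpiLC libraries high, with no overlap between states. The log2 fold change of EpiLCs over mESCs was 5.64 ± 0.09 in mutant cells (49.9-fold, edgeR adjusted p = 9.49e-93) and 5.51 ± 0.09 in WT cells (45.6-fold, edgeR adjusted p = 1.28e-93). Errors of fold changes are standard errors throughout. Ranked over 13879 genes, Dusp4 was the 124th highest rise in mutant cells and the 72nd highest in WT cells. Dusp6 was at 236, 239 and 241 CPM in mutant EpiLCs and 219, 228 and 240.1 CPM in WT EpiLCs, against 35.01, 30.7 and 29.7 CPM in mutant mESCs and 23.3, 23.8 and 26.1 CPM in WT mESCs. It too was higher in every EpiLC library than in any mESC library, but it kept a higher mESC level than Dusp4. It was 7.51-fold higher in mutant EpiLCs than in mutant mESCs (log2 2.91 ± 0.06, edgeR adjusted p = 1.28e-79) and 9.43-fold higher in WT EpiLCs than in WT mESCs (log2 3.24 ± 0.07, edgeR adjusted p = 2.27e-82).

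The 3 Sprouty genes rose in EpiLCs by different amounts. Spry4 was at 64.1, 55.8 and 68.2 CPM in mutant EpiLCs and 76.4, 76.9 and 70.5 CPM in WT EpiLCs, against 15.7, 21.6 and 22.9 CPM in mutant mESCs and 6.98, 10.9 and 10.9 CPM in WT mESCs. It had the largest rise of the 3 in both genotypes, 3.12-fold in mutant cells (log2 1.64 ± 0.10, edgeR adjusted p = 1.92e-27) and 7.78-fold in WT cells (log2 2.96 ± 0.11, edgeR adjusted p = 5.51e-42). Spry1 was at 30.7, 33.4 and 31.4 CPM in mutant EpiLCs and 36.5, 42.1 and 37.2 CPM in WT EpiLCs, against 12.9, 13.9 and 14.7 CPM in mutant mESCs and 14.3, 15.5 and 11.3 CPM in WT mESCs. It rose 2.30-fold in mutant cells and 2.79-fold in WT cells. Spry2 was at 88.8, 86.8 and 78.5 CPM in mutant EpiLCs and 77.8, 85.2 and 80.6 CPM in WT EpiLCs, against 47.1, 52.0 and 40.1 CPM in mutant mESCs and 37.1, 30.7 and 36.1 CPM in WT mESCs. Its rise was 1.82-fold in mutant cells and 2.36-fold in WT cells, the smallest of the 3 in each genotype. For each of these genes the lowest EpiLC library was above the highest mESC library of the same genotype.

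The SPRED genes split. Spred1 was at 239.5, 234 and 247 CPM in mutant EpiLCs and 233, 239 and 218 CPM in WT EpiLCs, against 80.0, 77.9 and 70.1 CPM in mutant mESCs and 80.5, 71.9 and 70.3 CPM in WT mESCs. It rose 3.16-fold in mutant cells (log2 1.66 ± 0.05, edgeR adjusted p = 1.37e-58) and 3.10-fold in WT cells (log2 1.63 ± 0.05, edgeR adjusted p = 2.69e-57), with near-identical levels in the 2 genotypes in either state. Spred2 was at 99.9, 91.1 and 101 CPM in mutant EpiLCs and 104, 100.4 and 95.04 CPM in WT EpiLCs, against 74.6, 76.6 and 80.1 CPM in mutant mESCs and 79.5, 77.7 and 61.3 CPM in WT mESCs. Its rise was small, 1.26-fold in mutant cells (edgeR adjusted p = 2.48e-06) and 1.37-fold in WT cells (edgeR adjusted p = 1.34e-09).

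The transcription factor genes did not follow the phosphatase and Sprouty genes. Etv4 was at 105, 103 and 108 CPM in mutant EpiLCs and 156, 151 and 151 CPM in WT EpiLCs, against 96.4, 98.7 and 95.3 CPM in mutant mESCs and 96.8, 96.1 and 105 CPM in WT mESCs. It rose 1.54-fold in WT EpiLCs (log2 0.62 ± 0.05, edgeR adjusted p = 4.28e-20), while in mutant EpiLCs it was only 1.09-fold higher than in mutant mESCs (log2 0.13 ± 0.06, edgeR adjusted p = 0.0447). That second call is fragile: it was lost when any 1 of 10 libraries was left out, with an adjusted p of up to 0.153 without mutant mESC replicate 3. Of the fits with 1 library left out, it held only without WT mESC replicate 1 or mutant EpiLC replicate 2. The call was also lost with no filter on low counts (log2 0.11, edgeR adjusted p = 0.104). Etv5, the most abundant of the 10 after Egr1 in mESCs, was at 342, 312 and 324 CPM in mutant EpiLCs and 408, 412 and 392 CPM in WT EpiLCs, against 477, 468 and 474 CPM in mutant mESCs and 479, 488 and 467 CPM in WT mESCs. It fell in EpiLCs to 0.690 of the mESC level in mutant cells (log2 -0.54 ± 0.04, edgeR adjusted p = 5.36e-25) and to 0.845 of it in WT cells (log2 -0.24 ± 0.04, edgeR adjusted p = 4.09e-08). High Etv4 and Etv5 counts were therefore present in mESC libraries grown with the MEK inhibitor.

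Egr1 ran against the feedback genes. It was at 42.7, 47.2 and 54.4 CPM in mutant EpiLCs and 31.4, 30.4 and 35.7 CPM in WT EpiLCs, against 880.1, 919.6 and 948 CPM in mutant mESCs and 571, 598 and 626 CPM in WT mESCs. Every mESC library was above every EpiLC library. Egr1 was 19.1-fold lower in mutant EpiLCs (log2 -4.26 ± 0.05, edgeR adjusted p = 8.38e-90) and 18.4-fold lower in WT EpiLCs (log2 -4.20 ± 0.06, edgeR adjusted p = 1.05e-86). It was the 127th largest fall of 13879 genes in mutant cells and the 89th largest in WT cells. Among the other immediate early genes, Fos, a subunit of the AP-1 transcription factor, was also lower in EpiLCs, at 16.8 ± 4.77 CPM in mutant EpiLCs and 9.91 ± 2.45 CPM in WT EpiLCs, against 82.3 ± 4.28 CPM in mutant mESCs and 54.0 ± 1.95 CPM in WT mESCs (SD, n = 3 each).

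**Figure D1:**
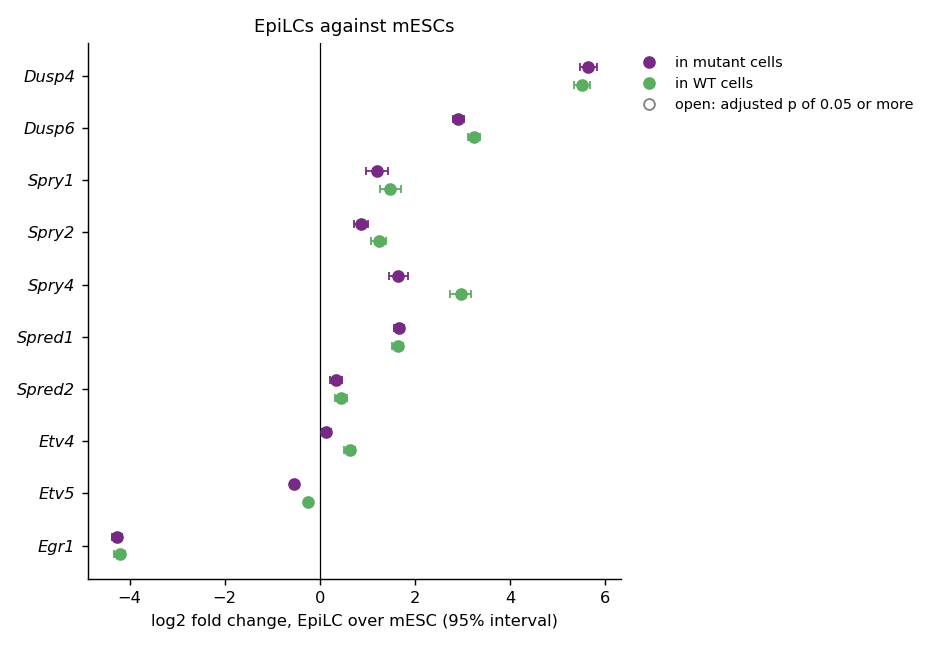
Log2 fold change of EpiLCs over mESCs (x axis) for each of the 10 genes (y axis), in mutant cells and in WT cells, with 95% intervals from the edgeR fit; filled points passed the test. Dusp4 lies farthest to the right at 5.64 in mutant cells and 5.51 in WT cells, Egr1 farthest to the left at -4.26 and -4.20, and the points of Spry4 are the farthest apart between genotypes.

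Mutant EPOP was then compared with WT EPOP within mESCs, where MEK is inhibited. Among the 10 genes, 4, namely Spry4, Egr1, Spry2 and Dusp6, were higher in mutant mESCs, 0 were lower, and 6 did not pass the edgeR test. Over all genes 18.5% passed, 8.4% higher and 10.1% lower. The median log2 fold change of the 10 genes was 0.05, and that of all genes was -0.00020. The 4 genes that passed were those in which every mutant mESC library lay above every WT mESC library. This separation comes from the same counts as the calls and adds no support to them. The share of all genes that separate in this way was not computed.

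Spry4 showed the largest change. Its level of 15.7, 21.6 and 22.9 CPM in mutant mESCs, against 6.98, 10.9 and 10.9 CPM in WT mESCs, gave a 2.10-fold rise (log2 1.07 ± 0.13, edgeR adjusted p = 3.70e-10). The lowest library of each genotype lay well below the other libraries of its genotype, yet the genotypes did not overlap. This was the 136th highest rise of 13879 genes, and 3.85% of all genes passed the test with a change of at least 2-fold in either direction. Egr1 averaged 916 ± 33.99 CPM in mutant mESCs and 598 ± 27.7 CPM in WT mESCs (SD, n = 3 each), a 1.53-fold rise (log2 0.62 ± 0.04, edgeR adjusted p = 2.54e-24). It was the most abundant of the 10 in both groups. Spry2 averaged 46.4 ± 6.004 CPM in mutant mESCs and 34.6 ± 3.45 CPM in WT mESCs, a 1.35-fold rise (log2 0.43 ± 0.08, edgeR adjusted p = 2.77e-05). Dusp6 averaged 31.8 ± 2.82 CPM in mutant mESCs and 24.4 ± 1.49 CPM in WT mESCs, a 1.31-fold rise (log2 0.39 ± 0.08, edgeR adjusted p = 0.000145). These 4 calls held in every alternative tried, each library left out in turn included.

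The other 6 genes did not pass in mESCs, and their intervals bound what a difference could be. Dusp4 had a log2 fold change of -0.30, with a 95% interval of -0.66 to 0.05, wide because the gene was near 5 CPM. Spry1 had a log2 fold change of 0.00 with an interval of -0.26 to 0.26. The intervals were narrower for the more abundant genes, at -0.09 to 0.15 for Spred1, -0.06 to 0.21 for Spred2, -0.15 to 0.08 for Etv4 and -0.09 to 0.06 for Etv5. Markers of the rare two-cell-like state moved with the genotype: 7 such genes summed to 6.34 to 9.36 CPM in mutant mESCs and 48.3 to 55.3 CPM in WT mESCs. All 5 of those tested were lower, against 10.1% of all genes. Their part in the differences above was not tested. Of the 8 epiblast markers, 5 were lower and 0 higher in mutant mESCs, with a median log2 fold change of -0.74. Over all genes 10.1% were lower and 8.4% higher. Of the 10 naive markers, 1 was higher and 1 lower, and 8 did not pass, a share near the 18.5% of all genes that passed. Among other tested markers, 2 of 4 shared pluripotency genes were higher and 2 of 5 neural genes were lower. For mesoderm genes 1 of 4 passed, for trophoblast genes 1 of 3, for endoderm genes 1 of 7 and for fibroblast genes 1 of 5. The part of these lists was not tested either.

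**Figure D2:**
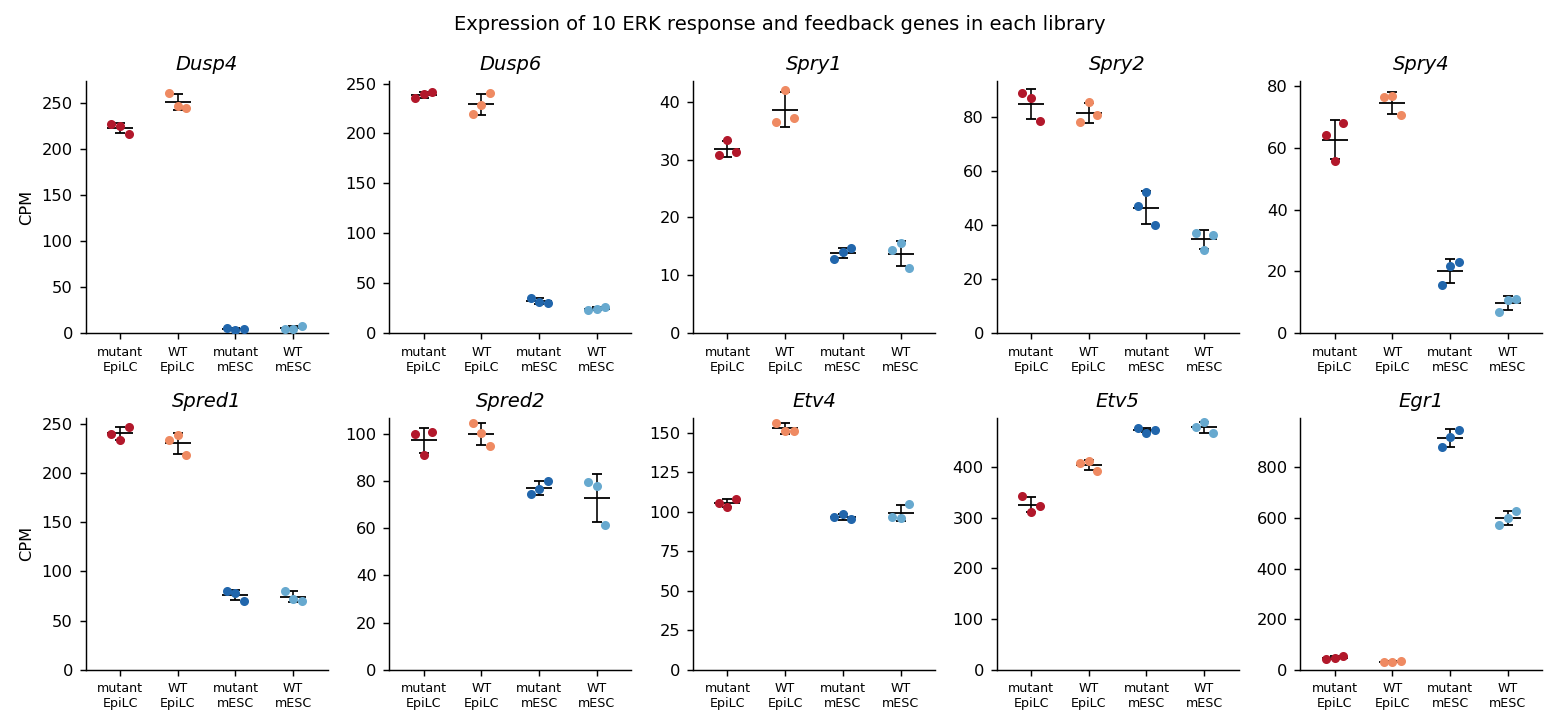
Expression of each of the 10 genes in CPM (y axis, linear, a scale of its own for each gene) by group (x axis), with a point for each library and lines for the mean and SD of 3 libraries. Spry4, Spry2, Dusp6 and Egr1 are higher in mutant than in WT mESCs with no overlap, and Etv4 and Etv5 are lower in mutant than in WT EpiLCs.

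The same comparison was made in EpiLCs, where the medium holds bFGF. Egr1 was again higher in mutant cells, Etv4, Etv5, Dusp4, Spry4 and Spry1 were lower, and Dusp6, Spry2, Spred1 and Spred2 did not pass the edgeR test. Thus 6 of 10 passed, against 15.8% of all genes (7.02% higher and 8.8% lower). The median log2 fold change of the 10 was -0.11, against -0.00081 for all genes. Without WT EpiLC replicate 1, only 3 of the 10 passed.

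Etv4 showed the largest fall. It was at 105, 103 and 108 CPM in mutant EpiLCs, against 156, 151 and 151 CPM in WT EpiLCs, and so fell to 0.692 of the WT level (log2 -0.53 ± 0.05, edgeR adjusted p = 5.90e-15). Etv5 averaged 326 ± 15.4 CPM in mutant EpiLCs and 404 ± 10.4 CPM in WT EpiLCs, a fall to 0.807 of the WT level (log2 -0.31 ± 0.04, edgeR adjusted p = 3.32e-10). Etv4 and Etv5 thus fell together, and both calls held in every alternative tried. Etv1, another PEA3 gene, did not pass in EpiLCs, at 60.2 ± 2.99 CPM in mutant cells and 54.3 ± 4.66 CPM in WT cells. Egr1 averaged 48.1 ± 5.91 CPM in mutant EpiLCs and 32.5 ± 2.79 CPM in WT EpiLCs, a 1.48-fold rise (log2 0.56 ± 0.07, edgeR adjusted p = 2.65e-10) that also held throughout.

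The 3 other falls were small, and their calls were lost when certain single libraries were left out. Dusp4 averaged 223 ± 5.57 CPM in mutant EpiLCs and 251 ± 8.73 CPM in WT EpiLCs (log2 -0.17 ± 0.05, edgeR adjusted p = 0.0102). The call was lost without mutant EpiLC replicate 3 (edgeR adjusted p = 0.0896) or without WT EpiLC replicate 1 (edgeR adjusted p = 0.0934). Spry4 averaged 62.7 ± 6.29 CPM in mutant EpiLCs and 74.6 ± 3.54 CPM in WT EpiLCs (log2 -0.25 ± 0.08, edgeR adjusted p = 0.0309). It was lost without replicate 1 or 2 of either genotype, with an adjusted p of up to 0.243, and with DESeq2 (adjusted p = 0.106). Spry1 averaged 31.9 ± 1.42 CPM in mutant EpiLCs and 38.6 ± 3.02 CPM in WT EpiLCs (log2 -0.28 ± 0.10, edgeR adjusted p = 0.0471). This last call was lost when any 1 of the 6 EpiLC libraries was left out, with an adjusted p of up to 0.268, with DESeq2 (adjusted p = 0.0846) and with the replicate number as a block (edgeR adjusted p = 0.0504). The filters lost it too, with no filter on low counts (edgeR adjusted p = 0.0613) and with at least 1 CPM in 3 libraries (edgeR adjusted p = 0.0517). In the authors' deposited table of the same comparison, Dusp4 had an adjusted p of 0.00381, Spry1 0.0150 and Spry4 0.0503, with the same directions. For the genes that did not pass, the 95% intervals of the log2 fold change were -0.04 to 0.16 for Dusp6, -0.08 to 0.20 for Spry2, -0.04 to 0.16 for Spred1 and -0.16 to 0.09 for Spred2.

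Some marker lists moved with the genotype in EpiLCs, where 15.8% of all genes passed, 7.02% higher and 8.8% lower. All 10 naive pluripotency genes were lower in mutant EpiLCs, and their summed level was 377 to 382 CPM in mutant EpiLCs and 676 to 688 CPM in WT EpiLCs. All 8 epiblast genes passed the test, 5 higher and 3 lower. The 7 endoderm genes summed to 18.3 to 22.7 CPM in mutant EpiLCs and 45.3 to 48.3 CPM in WT EpiLCs, with 4 of 7 lower, and the 7 two-cell-like genes summed to 21.7 to 23.3 CPM in mutant EpiLCs and 75.3 to 93.6 CPM in WT EpiLCs, with 4 of 5 tested lower. Among other tested markers, 2 of 4 shared pluripotency genes and 2 of 5 neural genes passed. For trophoblast genes it was 1 of 3, for fibroblast genes 1 of 5 and for mesoderm genes 0 of 4. The part of these lists in the falls of Etv4 and Etv5 and in the rise of Egr1 was not tested.

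**Figure D3:**
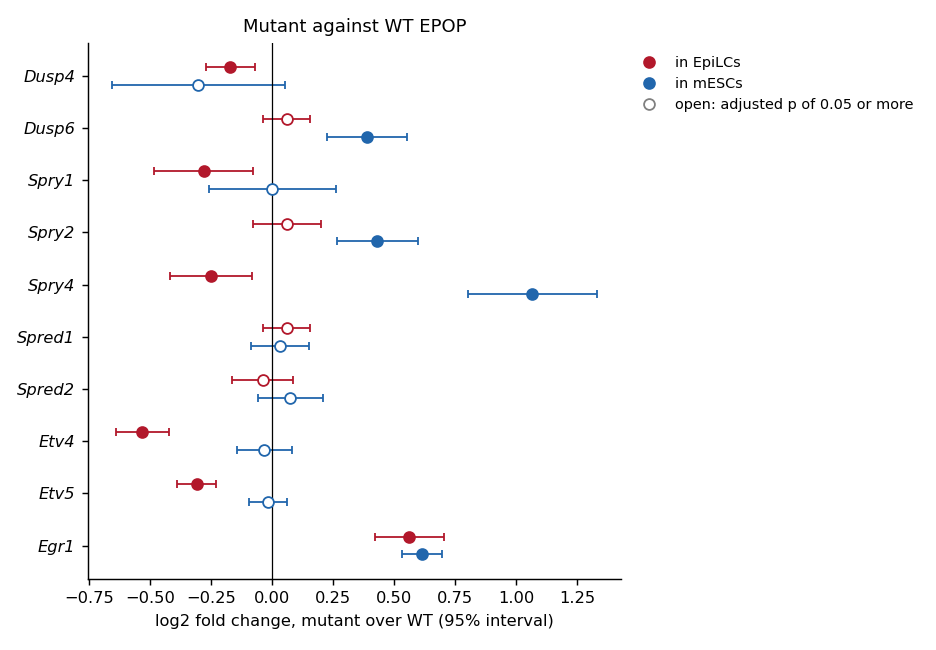
Log2 fold change of mutant over WT EPOP (x axis) for each of the 10 genes (y axis), in EpiLCs and in mESCs, with 95% intervals from the edgeR fit; open points did not pass the test. Egr1 is to the right in both states at 0.56 in EpiLCs and 0.62 in mESCs, while Spry4 is at -0.25 in EpiLCs and 1.07 in mESCs.

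Whether the mutant effect depended on the cell state was tested directly, as the effect in EpiLCs minus the effect in mESCs. It differed for 5 of the 10 genes, each time with the lower value in EpiLCs, against 9.74% of all genes (4.69% higher and 5.05% lower). Spry4 changed direction, with a log2 fold change of -0.25 in EpiLCs and 1.07 in mESCs, a difference of -1.32 ± 0.16 (edgeR adjusted p = 1.88e-10). This was the 198th lowest difference of 13879 genes. Etv4 differed by -0.50 ± 0.08 (edgeR adjusted p = 3.76e-07) and Etv5 by -0.29 ± 0.06 (edgeR adjusted p = 4.01e-05), their falls in mutant cells having passed the test in EpiLCs and not in mESCs. Dusp6 differed by -0.33 ± 0.10 (edgeR adjusted p = 0.0135) and Spry2 by -0.37 ± 0.11 (edgeR adjusted p = 0.0151), their rises having passed in mESCs and not in EpiLCs.

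The calls of the last 2 of these were lost when certain single libraries were left out. The Dusp6 difference was lost without mutant mESC replicate 1, WT mESC replicate 1 or WT mESC replicate 2, with an adjusted p of up to 0.116. The Spry2 difference was lost without mutant mESC replicate 2, WT mESC replicate 2, mutant EpiLC replicate 3 or WT EpiLC replicate 2, with an adjusted p of up to 0.129, and with DESeq2 (adjusted p = 0.0515). Without WT mESC replicate 2, 3 of the 10 genes differed. Egr1, higher in mutant cells of both states, had a difference of -0.05 with a 95% interval of -0.22 to 0.11, and the intervals of Spred1 (-0.13 to 0.18) and Spred2 (-0.30 to 0.07) also held 0. Spry1 (-0.61 to 0.05) and Dusp4 (-0.24 to 0.50) did not pass either, with wider intervals.

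The gap between states was narrower in mutant than in WT cells for some of the genes and wider for others. The mESC level of Spry4 was 32.0% of the EpiLC level in mutant cells and 12.8% in WT cells. For Spry2 the mESC level was 54.8% of the EpiLC level in mutant cells and 42.6% in WT cells, and for Dusp6 it was 13.3% in mutant cells and 10.6% in WT cells. For Etv4 the mESC level was 91.7% of the EpiLC level in mutant cells and 65.0% in WT cells. Etv5, higher in mESCs, had a wider gap in mutant cells, its mESC level being 145% of the EpiLC level there and 118% in WT cells. The values were close for Dusp4, at 2.01% in mutant cells and 2.24% in WT cells, and for Spred1, at 31.7% in mutant cells and 32.3% in WT cells. These ratios are the same contrast as the differences of effects and add no test.

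Levels were compared between genes with the authors' deposited TPM, which are scaled for gene length. Dusp4, Dusp6 and Etv5 led in EpiLCs, and Egr1 and Etv5 led in mESCs. In mutant EpiLCs Dusp4 came first at 194 TPM, above Dusp6 and Etv5, which overlapped at means of 180.2 and 180.1 TPM. Etv4 (95.4 TPM), Spry2 (85.7 TPM) and the overlapping Spred1 and Spred2 (71.6 and 71.5 TPM) followed, and Egr1, Spry4 and Spry1 came last at 33.1, 28.9 and 27.0 TPM, each overlapping its neighbour. In WT EpiLCs Etv5 (229 TPM) and Dusp4 (224 TPM) overlapped at the top, followed by Dusp6 (178 TPM), Etv4 (142 TPM), Spry2 (84.4 TPM), the overlapping Spred2 and Spred1 (75.5 and 70.4 TPM), and the overlapping Spry4 and Spry1 (35.2 and 33.6 TPM). Egr1 was the lowest there at 22.9 TPM.

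In mESCs the order was led by the transcription factor genes. Mutant mESCs had Egr1 at 596 TPM, Etv5 at 247 TPM and Etv4 at 82.8 TPM, then Spred2 (53.6 TPM), Spry2 (44.4 TPM), the overlapping Dusp6 and Spred1 (22.7 and 21.4 TPM), Spry1 (11.1 TPM), Spry4 (8.74 TPM) and Dusp4 (3.68 TPM). WT mESCs had Egr1 at 399.9 TPM, Etv5 at 257 TPM, Etv4 at 87.2 TPM, Spred2 at 52.2 TPM and Spry2 at 34.1 TPM, then Spred1 (21.5 TPM), Dusp6 (17.9 TPM), Spry1 (11.3 TPM) and the overlapping Dusp4 and Spry4 (4.75 and 4.28 TPM). Other neighbours in each order did not overlap across their 3 libraries. Some neighbours were placed otherwise between the genotypes: Dusp6 overlapped Spred1 in mutant mESCs and stood below it in WT mESCs, and Spry4 stood above Dusp4 in mutant mESCs and overlapped it in WT mESCs.

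Summed over the 10 genes, the level was 967 ± 22.2 TPM in mutant EpiLCs, 1095 ± 18.3 TPM in WT EpiLCs, 1091 ± 21.4 TPM in mutant mESCs and 890.2 ± 4.51 TPM in WT mESCs (SD, n = 3 each). The sum was lower in mutant than in WT EpiLCs and higher in mutant than in WT mESCs, with no overlap across libraries. The genes behind the sums differed mostly between the states. The DUSP genes made up 38.7% of the sum in mutant EpiLCs and 36.7% in WT EpiLCs, against 2.42% in mutant mESCs and 2.54% in WT mESCs. Egr1 alone made up 3.42% in mutant EpiLCs and 2.10% in WT EpiLCs, against 54.6% in mutant mESCs and 44.9% in WT mESCs. Within the Sprouty genes, Spry2 held the largest share everywhere, with 60.5% of the Sprouty TPM in mutant EpiLCs, 55.1% in WT EpiLCs, 69.0% in mutant mESCs and 68.5% in WT mESCs. The share of Spry4 was 20.4% in mutant EpiLCs, 23.0% in WT EpiLCs, 13.6% in mutant mESCs and 8.69% in WT mESCs.

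**Figure D4:**
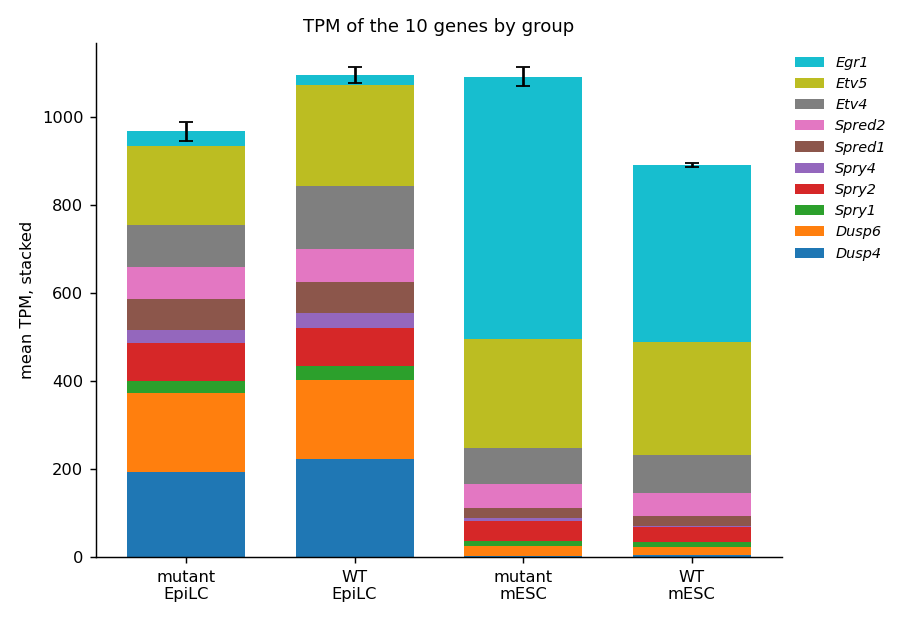
Mean TPM of the 10 genes, stacked (y axis), in each of the 4 groups (x axis), from the authors' deposited values scaled for gene length, with the SD of the sum over 3 libraries as error bars. Egr1 reaches 596 TPM in mutant mESCs and 399.9 TPM in WT mESCs and is at 33.1 TPM in mutant EpiLCs and 22.9 TPM in WT EpiLCs, where Dusp4, Dusp6 and Etv5 take the largest parts.

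Across the 12 libraries the 10 genes fell into sets by their pattern. Among the 7 DUSP, Sprouty and SPRED genes, the 21 pairwise Pearson correlations of log2 CPM ran from 0.845 to 0.993. Egr1 correlated with these 7 at -0.992 to -0.875. Etv4 was correlated with the other 9 at -0.758 to 0.761. These values are descriptions over libraries that share 2 cell states, so they mostly record which state is higher. The spread between replicates was larger for the genes that are low in mESCs: the coefficient of variation reached 28.1% for Dusp4 and 23.6% for Spry4 in WT mESCs, against medians over the 10 genes of 4.58% in mutant EpiLCs, 4.59% in WT EpiLCs, 6.69% in mutant mESCs and 8.68% in WT mESCs.

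Other genes were highly correlated with them, which says nothing of the size of their changes. Among 10252 genes averaging 5 CPM or more, predicted and clone names left out, those most like Dusp6 over the 12 libraries were Slc7a7 (r = 0.999), Zswim4 (r = 0.998) and Enpp3 (r = 0.997). Those most like Spry4 were B3gnt7 (r = 0.984), Utf1 (r = 0.984) and Nol9 (r = 0.983), and those most like Egr1 were Glt25d1, Tst and Hap1, each at r = 0.997. A high correlation is common in this design, since 889 genes were above 0.95 with Dusp6, 889 with Egr1 and 144 with Spry4. Utf1, a chromatin-associated gene of pluripotent cells, was at 418 CPM in mutant EpiLCs, 416 CPM in WT EpiLCs, 187 CPM in mutant mESCs and 109 CPM in WT mESCs.

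The rest of the pathway was followed through 5 lists of other genes, starting with ligands and receptors. Of 8 FGF ligand and receptor genes tested, 6 were higher and 1 lower in EpiLCs than in mESCs in each genotype, where 66% of all genes passed in mutant cells and 62.7% in WT cells. Fgfr2, a receptor gene, was at 30.7 ± 3.45 CPM in mutant EpiLCs and 30.0 ± 1.14 CPM in WT EpiLCs, against 1.12 ± 0.300 CPM in mutant mESCs and 2.09 ± 0.718 CPM in WT mESCs. It rose in EpiLCs by 4.76 ± 0.20 in mutant cells (edgeR adjusted p = 4.73e-46) and by 3.81 ± 0.18 in WT cells (edgeR adjusted p = 2.99e-41) on the log2 scale. Between genotypes, 4 were higher and 1 lower in mutant EpiLCs, against 15.8% of all genes in either direction, and 0 were higher and 4 lower in mutant mESCs, against 18.5%. The median log2 fold change of the list was 0.11 in EpiLCs and -0.67 in mESCs. Several of its genes were near the floor in mESCs: Fgf5, Fgf8 and Fgfr3 were each under 1 CPM in both groups. Fgf4, a more abundant ligand gene, was at 158 ± 6.51 CPM in mutant mESCs and 212 ± 3.90 CPM in WT mESCs (log2 -0.43 ± 0.05, edgeR adjusted p = 1.19e-12). Fgf8, a ligand gene, was at 8.75 ± 1.27 CPM in mutant EpiLCs and 2.70 ± 0.533 CPM in WT EpiLCs, a log2 rise of 1.71 ± 0.28 (edgeR adjusted p = 9.80e-07). Fgf5, the ligand gene that marks the epiblast, was at 9.58 ± 1.96 CPM in mutant EpiLCs and 5.12 ± 0.519 CPM in WT EpiLCs, a log2 rise of 0.91 ± 0.25 (edgeR adjusted p = 0.00388) that was lost without mutant EpiLC replicate 1 (edgeR adjusted p = 0.0701). It had no count in mutant mESCs and 0.267 ± 0.103 CPM in WT mESCs. Its mESC call (edgeR adjusted p = 0.0279) was lost without any 1 of 4 libraries, with an adjusted p of up to 0.0791. The mESC call of Fgfr2 (log2 -0.92 ± 0.33, edgeR adjusted p = 0.0404) was lost without replicate 1 or 3 of the mutant mESCs or replicate 1 or 2 of the WT mESCs, with an adjusted p of up to 0.205. It was also lost with no filter on low counts (edgeR adjusted p = 0.0527) and with only the groups compared (edgeR adjusted p = 0.125).

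Of 19 cascade genes from the adaptors to ERK, 0 passed in mutant EpiLCs, against 15.8% of all genes. In mutant mESCs 2 were higher and 1 lower, a share near the 18.5% of all genes, and 0 of 19 differed between states in the mutant effect, against 9.74% of all genes. The median log2 fold change was -0.0061 in EpiLCs and -0.0028 in mESCs. The largest was Sos2, a RAS activator, at 14.4 ± 1.10 CPM in mutant mESCs and 19.3 ± 0.624 CPM in WT mESCs (log2 -0.42 ± 0.12, edgeR adjusted p = 0.00715). The rise of Frs2, the adaptor of FGF receptors, in mutant mESCs (log2 0.21 ± 0.08, edgeR adjusted p = 0.0470) was lost with DESeq2 (adjusted p = 0.0785). It was lost with no filter on low counts (edgeR adjusted p = 0.0570) and with at least 1 CPM in 3 libraries (edgeR adjusted p = 0.0574). With only the groups compared it was lost as well (edgeR adjusted p = 0.0617). So it was without any 1 of 7 libraries, with an adjusted p of up to 0.232. These were the 3 mutant mESC replicates, WT mESC replicates 2 and 3, mutant EpiLC replicate 3 and WT EpiLC replicate 1. Between states, 10 of 19 were higher and 4 lower in mutant EpiLCs, against 66% of all genes in either direction, and 12 were higher and 4 lower in WT EpiLCs, against 62.7%. Braf, a RAF kinase gene, rose by 1.19 ± 0.05 in mutant cells (edgeR adjusted p = 6.49e-43) and by 1.32 ± 0.05 in WT cells (edgeR adjusted p = 1.75e-47) on the log2 scale. Ksr1, a scaffold gene, fell by 1.16 in WT cells on the log2 scale (edgeR adjusted p = 6.68e-13). In mutant cells too it was lower, at 10.2 ± 0.766 CPM in EpiLCs and 22.5 ± 0.804 CPM in mESCs.

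Of 14 other inhibitor genes, 4 were higher and 2 lower in mutant EpiLCs, against 15.8% of all genes in either direction, and 3 were higher and 1 lower in mutant mESCs, against 18.5%. In both states the median log2 fold change was 0.02. Dusp9, a phosphatase gene acting on ERK, was lower in mutant cells of both states. It was at 183 ± 6.05 CPM in mutant EpiLCs against 352 ± 18.1 CPM in WT EpiLCs (log2 -0.94 ± 0.05, edgeR adjusted p = 4.04e-38), and at 80.1 ± 1.66 CPM in mutant mESCs against 137 ± 3.92 CPM in WT mESCs (log2 -0.78 ± 0.05, edgeR adjusted p = 7.67e-26). Its fall in mESCs was thus opposite in direction to the rise of Dusp6. Dusp1, another phosphatase gene, was at 65.1 ± 2.90 CPM in mutant mESCs and 41.5 ± 2.67 CPM in WT mESCs (log2 0.64 ± 0.08, edgeR adjusted p = 1.61e-10). Spred3, the third SPRED gene, was at 38.2 ± 0.468 CPM in mutant EpiLCs and 25.4 ± 1.33 CPM in WT EpiLCs (log2 0.59 ± 0.11, edgeR adjusted p = 2.19e-05), while Spred1 and Spred2 did not pass there. Between states, 7 of 14 were higher and 3 lower in mutant EpiLCs, against 66% of all genes, and 9 were higher and 3 lower in WT EpiLCs, against 62.7%. Il17rd, an FGF signalling inhibitor gene, rose by 1.80 ± 0.05 in mutant cells (edgeR adjusted p = 1.23e-62) and by 1.87 ± 0.06 in WT cells (edgeR adjusted p = 9.43e-61). Between genotypes Il17rd was at 256 ± 12.7 CPM in mutant EpiLCs and 185 ± 4.49 CPM in WT EpiLCs. In mESCs it was at 73.7 ± 3.96 CPM in mutant cells and 50.6 ± 2.38 CPM in WT cells (log2 0.54 ± 0.06, edgeR adjusted p = 6.66e-12).

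Of 18 other immediate early and ERK response genes, 6 were higher and 4 lower in mutant EpiLCs, against 15.8% of all genes in either direction, and 5 were higher and 2 lower in mutant mESCs, against 18.5%. The median log2 fold change was 0.10 in EpiLCs and 0.11 in mESCs. Myc, a growth-promoting transcription factor gene, was at 34.7 ± 2.11 CPM in mutant mESCs and 15.3 ± 0.803 CPM in WT mESCs (log2 1.18 ± 0.09, edgeR adjusted p = 1.31e-21). Ier5 was at 3.65 ± 0.656 CPM in mutant mESCs and 6.81 ± 0.328 CPM in WT mESCs (log2 -0.89 ± 0.23, edgeR adjusted p = 0.00190). In EpiLCs the largest changes that passed were falls, of Phlda1 to 7.44 ± 0.865 CPM in mutant EpiLCs, against 13.7 ± 0.546 CPM in WT EpiLCs (log2 -0.88 ± 0.18, edgeR adjusted p = 0.000117), and of Jun, an AP-1 subunit gene, to 9.06 ± 0.789 CPM in mutant EpiLCs, against 15.5 ± 0.856 CPM in WT EpiLCs (log2 -0.77 ± 0.16, edgeR adjusted p = 8.61e-05). Between states, 7 were higher and 10 lower in mutant EpiLCs, against 66% of all genes, and 6 were higher and 7 lower in WT EpiLCs, a share not far from the 62.7% of all genes. The lower ones included Fos, which fell by 2.28 in mutant cells (edgeR adjusted p = 4.73e-22) and by 2.44 in WT cells (edgeR adjusted p = 7.28e-21) on the log2 scale. Junb, another AP-1 subunit gene, fell by 2.53 in mutant cells on the same scale (edgeR adjusted p = 3.52e-43). In WT cells too it was lower, at 7.97 ± 0.939 CPM in EpiLCs and 41.4 ± 4.97 CPM in mESCs. Myc moved the other way and was 2.96 ± 0.08 higher in WT EpiLCs on the log2 scale (edgeR adjusted p = 1.29e-67). In mutant cells too it was higher, at 134 ± 5.82 CPM in EpiLCs against 34.7 ± 2.11 CPM in mESCs.

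Of 12 other ETS factor genes, 2 were higher and 8 lower in mutant EpiLCs than in mutant mESCs, and 2 were higher and 7 lower in WT EpiLCs than in WT mESCs. Over all genes 66% passed in mutant cells and 62.7% in WT cells. Etv1, the third gene of the PEA3 subfamily, was at 60.2 ± 2.99 CPM in mutant EpiLCs and 54.3 ± 4.66 CPM in WT EpiLCs, against 15.6 ± 0.692 CPM in mutant mESCs and 14.4 ± 1.99 CPM in WT mESCs. It rose in EpiLCs by 1.95 ± 0.10 in mutant cells (edgeR adjusted p = 7.15e-39) and by 1.90 ± 0.10 in WT cells (edgeR adjusted p = 9.33e-37) on the log2 scale, a larger change than those of Etv4 and Etv5. Between genotypes, 1 was higher and 1 lower in mutant EpiLCs, a share near the 15.8% of all genes, and 2 were higher and 2 lower in mutant mESCs, against 18.5% of all genes. The list had a median log2 fold change of -0.07 in EpiLCs and 0.10 in mESCs. Ets1 was at 0.718 ± 0.301 CPM in mutant mESCs and 2.06 ± 0.454 CPM in WT mESCs (log2 -1.51 ± 0.38, edgeR adjusted p = 0.00168), and Elk3 at 8.35 ± 1.19 CPM in mutant mESCs and 4.05 ± 1.22 CPM in WT mESCs (log2 1.06 ± 0.24, edgeR adjusted p = 0.00047). In EpiLCs Elf4 was at 7.29 ± 1.61 CPM in mutant cells and 11.7 ± 1.83 CPM in WT cells (log2 -0.68 ± 0.16, edgeR adjusted p = 0.000764), and Etv6, an ETS repressor gene, at 52.9 ± 1.74 CPM in mutant cells and 36.1 ± 2.82 CPM in WT cells (log2 0.55 ± 0.08, edgeR adjusted p = 1.11e-08).

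**Figure D5:**
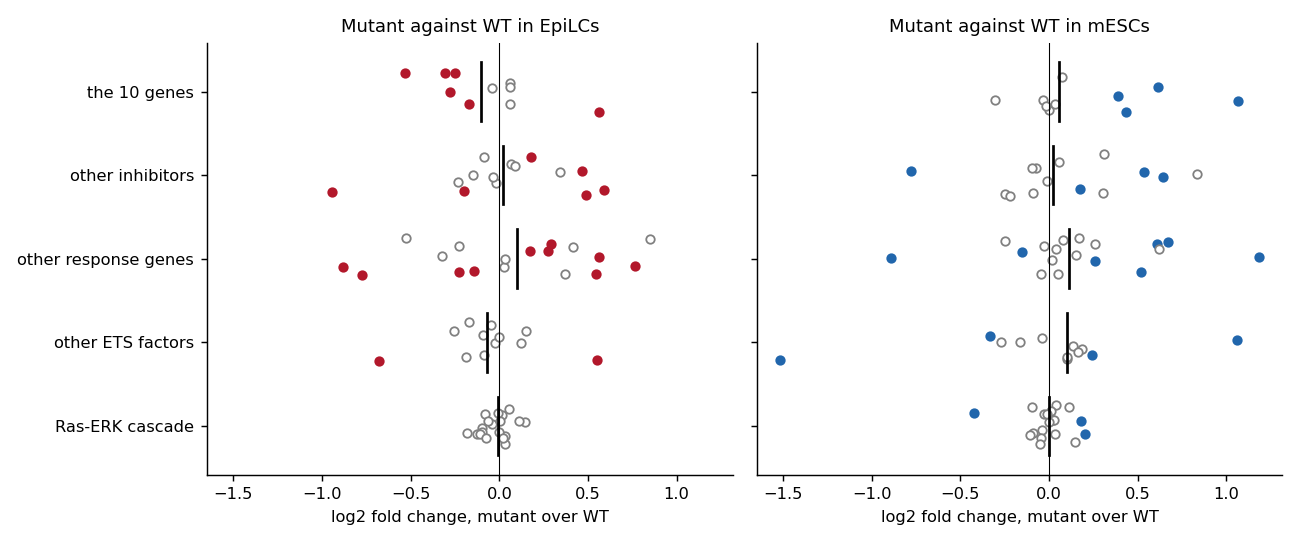
Log2 fold change of mutant over WT EPOP (x axis) in EpiLCs and in mESCs for every tested gene of the 10 and of 4 lists of other pathway genes (y axis, points spread at random within a list); filled points passed the edgeR test and the vertical bar is the list's median. Among the 10 genes, 1 was higher and 5 lower in EpiLCs and 4 were higher and 0 lower in mESCs, while of 19 cascade genes 0 passed in EpiLCs and 3 in mESCs.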

How the data were processed

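The 12 libraries of total RNA were grouped by their genotype and cell type labels. Build mm10 and the tools STAR 2.5.3a, FastQC 0.11.2, edgeR 3.18.1 and featureCounts (Subread) are named per the submitters' processing notes. Tests start from the deposited raw gene counts. The authors also deposited CPM columns, treated as a score because they follow effective library sizes, and these entered no test. The authors' deposited TPM were used for levels between genes. From the authors' deposited comparisons, p-values and directions of log2 fold changes are quoted once and named there.

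Of 19656 features, 26 with dates in place of symbols (0.182 to 0.212% of counts) were left out. After filterByExpr and TMM scaling (factors 0.985 to 1.01), genes were tested in 1 fit of all 12 libraries with edgeR 4.0.16 (quasi-likelihood, robust) in R 4.3.3, with 8 residual degrees of freedom and Benjamini-Hochberg adjustment over 13879 genes; calls are at 0.05. The script was tested on simulated data. CPM use effective library sizes. Replicates differed by more than sampling noise.

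All 10 genes are named, and other pathway genes are drawn from the 2 called genes per list and comparison with the largest change and a mean of at least 2 CPM. Fgf4, Fgfr3 and the genotype values of Il17rd were added outside this rule, after values were seen. The members, lists and tests were chosen with earlier results of these data known. Alternatives covered DESeq2 1.42.0, filters, the groups fitted, a replicate block and each library left out.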

Additional observations from a re-analysis of the deposited data

Results flagged for a closer look

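The mutant effect differed between EpiLCs and mESCs, by a test of the difference itself, for 5 of the 10 genes. On the log2 scale, as EpiLCs minus mESCs, the difference was -1.32 for Spry4, -0.50 for Etv4, -0.37 for Spry2, -0.33 for Dusp6 and -0.29 for Etv5. In the lists of other pathway genes, 3 of 8 FGF genes, 0 of 19 cascade genes and 3 of 14 other inhibitor genes differed. So did 7 of 18 other response genes and 2 of 12 other ETS genes, against 9.74% of all genes. The genes named next were picked as called genes, at most 2 per list, so their number is not a result. The FGF ligand gene Fgf5 passed (edgeR adjusted p = 0.00995), but it had no count in mutant mESCs, so no size is given. Fgf8, another FGF ligand gene, differed by 3.09 ± 0.64 (edgeR adjusted p = 0.000195), being low in mESCs at 0.356 ± 0.232 CPM in mutant cells and 0.988 ± 0.582 CPM in WT cells. Dusp1, a phosphatase gene, differed by -0.88 ± 0.12 (edgeR adjusted p = 9.03e-09), and Dusp7, another, by 0.56 ± 0.15 (edgeR adjusted p = 0.00480). The immediate early genes Ier3 and Phlda1 differed by -1.15 ± 0.37 (edgeR adjusted p = 0.0321) and -1.05 ± 0.29 (edgeR adjusted p = 0.00857). The ETS genes Ets1 and Etv6 differed by 1.26 ± 0.42 (edgeR adjusted p = 0.0381) and 0.30 ± 0.11 (edgeR adjusted p = 0.0479).

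The calls of Ier3, Ets1 and Etv6 were easily lost. With no filter on low counts, the edgeR adjusted p was 0.0521 for Ets1 and 0.0647 for Etv6, and with DESeq2 it was 0.0597 for Etv6. Single libraries also mattered. That of Ier3 was lost without mutant mESC replicate 3, WT mESC replicate 2, WT EpiLC replicate 3 or any mutant EpiLC replicate, with an adjusted p of up to 0.176. That of Ets1 was lost without mutant mESC replicate 1 or 3, WT mESC replicate 1 or 2, mutant EpiLC replicate 1 or WT EpiLC replicate 1 or 2, with an adjusted p of up to 0.166. That of Etv6 was lost without any 1 of 10 libraries, the exceptions being mutant EpiLC replicate 2 and WT EpiLC replicate 2, with an adjusted p of up to 0.168.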

How the results depend on the processing

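Of 178 counts of called genes recomputed under the alternatives, 176 stayed within 1.5-fold. The exceptions were the members called in EpiLCs, 3 to 6 when 1 library was left out, with 3 without WT EpiLC replicate 1, and those whose effect differed between states, 3 to 5, with 3 without WT mESC replicate 2. Of 890 recomputed values of the 10 genes, 837 kept direction and call, 36 lost the call and 17 changed sign. The sign changes were all of values that did not pass in the full fit. Spry1 in mESCs became -0.0052 with at least 1 CPM in 3 libraries and -0.0013 with only the groups compared. With 1 library left out, the log2 ranges were -0.11 to 0.10 for Spry1, -0.0058 to 0.097 for Spred1, -0.028 to 0.139 for Spred2 and -0.058 to 0.0057 for Etv4 in mESCs, -0.0735 to 0.010 for Spred2 in EpiLCs, and -0.096 to 0.332 for Dusp4, -0.137 to 0.032 for Egr1 and -0.030 to 0.064 for Spred1 in the difference of effects. Of 819 values of the other pathway genes, 771 kept direction and call and 48 lost the call. The cause of these changes was not tested.

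Same-numbered libraries did not deviate together (r -0.044 to 0.039 over 18 pairs, against -0.035 to 0.046 for other pairs), so the numbers are not taken to pair them. A replicate block called 2254 genes in EpiLCs and 2581 in mESCs, and among the 10 genes only Spry1 in EpiLCs lost its call (log2 -0.28, edgeR adjusted p = 0.0504). Depth limits Dusp4, Spry1 and Spry4 most, since their mESC levels are the lowest of the 10.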
